A study of Mus musculus with 15 samples.

Results

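*Il2rg*, the gene of the common gamma chain of cytokine receptors, was followed together with 9 genes of cytokine receptor signalling in the RNA sequencing libraries of A20 cells. The 9 genes encode the receptor chains *Il4ra, Il21r, Il10ra, Il6ra* and *Ifngr1*, the kinases *Jak1* and *Jak3* and the transcription factors *Stat3* and *Stat6*. *Il2rg* was chosen from these same libraries because its level moved in opposite directions in clones E6.2 and E7.1 when each was compared with parental cells, and the other 9 genes were listed around it by name. These 10 genes are among 41480 features in the deposited count tables. 9 of the 10 passed the filter on low counts and were tested with 13904 genes in all, and *Il10ra* did not pass.

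A20 cells are a mouse B-cell lymphoma line of the BALB/c strain, and the study asked what depletion of the forkhead transcription factor Foxp1 does in these cells. The parental line has the WT genotype, clones E6.1 and E6.2 carry a mutation in exon 6 of *Foxp1*, and clones E7.1 and E7.2 carry a mutation in exon 7. Each clone is 1 line grown from a single cell that had been electroporated with a Cas9 and guide plasmid and sorted for GFP, so that an effect of the mutation and a property of the founding cell cannot be told apart for any one clone. Each of the 5 lines was sequenced in 3 libraries from separate passages, 15 libraries in all, and every p-value below therefore measures the spread between passages of a line.

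The libraries held between 26328054 and 39181530 counts, and 3 counts corresponded to 0.0751 to 0.118 CPM, the unit of level used throughout, in which counts are scaled to the TMM-normalized size of each library. *Foxp1* mRNA was 138 ± 32.7 CPM (SD, n = 3) in parental cells. E6.1 had 104 ± 4.60 CPM and E6.2 106 ± 2.38 CPM, while E7.1 had 56.8 ± 13.0 CPM and E7.2 43.0 ± 8.19 CPM. It was lower than in parental cells in E7.1 and E7.2 (Benjamini-Hochberg adjusted p of edgeR's quasi-likelihood test = 0.00688 and 0.00116), and the test did not call it in E6.1 or E6.2 (0.765 and 0.417). All 6 B-cell markers examined were above 1 CPM in every library, with a summed level of 818 to 1510 CPM. The T-cell markers summed to 0.150 to 0.607 CPM with *Cd3e* at 0, the NK-cell markers to 0.375 to 3.81 CPM with *Ncr1* at 0, and the myeloid markers to 0.421 to 7.92 CPM. Replicate 1 of E6.2 stood apart in that *Gm42418*, a gene known to overlap ribosomal RNA repeats, took 10.3% of its counts, against 0.0604% to 2.22% in the other libraries. Replicate 3 of E6.2 and replicate 3 of E7.2 deviated alike from their own lines (r = 0.451 across genes, which are not independent replicates).

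The gamma chain has no kinase activity and is a shared subunit of the receptors for interleukins 2, 4, 7, 9, 15 and 21, which combine it with other chains. Jak3 binds the gamma chain and Jak1 binds a partner chain, and on ligand binding both phosphorylate STAT proteins, which enter the nucleus and activate target genes. Stat6 is best known downstream of interleukin 4 and Stat3 downstream of interleukins 6, 10 and 21. The receptors that contain Il10ra, Il6ra and Ifngr1 do not use the gamma chain but share Jak1. In B cells these receptors are known for their part in germinal centre responses, class switching and plasma cell formation.

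The bases just upstream of 2 members are shown because they were the 2 that held a match to any of 4 searched motifs. The sequences are the 250 bases before the RefSeq gene start on the GRCm38.p6 assembly, which is a C57BL/6J genome and not the BALB/c genome of these cells, read 5′ to 3′ on the strand of the gene. Lower case is the promoter and capitals mark the match, which is CCGGAAG, a letter pattern of ETS-family factors, in *Il2rg* and TGTTTAC, a letter pattern of forkhead factors, in *Il21r*.
*Il2rg*, chrX:101268256-101268505, minus strand: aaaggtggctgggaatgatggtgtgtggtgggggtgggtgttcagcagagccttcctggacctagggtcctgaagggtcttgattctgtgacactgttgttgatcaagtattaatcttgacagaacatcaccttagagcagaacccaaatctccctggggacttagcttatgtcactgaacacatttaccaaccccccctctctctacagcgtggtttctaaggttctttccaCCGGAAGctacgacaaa
*Il21r*, chr7:125603179-125603428, plus strand: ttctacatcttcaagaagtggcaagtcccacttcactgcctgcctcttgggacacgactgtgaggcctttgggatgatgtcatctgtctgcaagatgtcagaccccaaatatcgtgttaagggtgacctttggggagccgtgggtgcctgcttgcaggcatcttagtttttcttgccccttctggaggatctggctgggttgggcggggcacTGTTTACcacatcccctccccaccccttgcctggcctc
Of the 10 members, 9 had an entry in the promoter table and *Il10ra* had none. The *Il2rg* match begins 17 bases before the start and the *Il21r* match 38 bases before it. Both strands were searched for these 2 patterns, for TTCNNNGAA, a STAT pattern, and for a STAT6-type pattern with the same ends and 1 more free base between them, and the STAT patterns can overlap the letters of CCGGAAG. In the table as a whole, TGTTTAC was found in 3.17% of 32851 promoters, CCGGAAG in 6.91%, TTCNNNGAA in 7.02% and the STAT6-type pattern in 5.85%. Among the 9 members the same counts were 1, 1, 0 and 0.

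*Il2rg* (ENSMUSG00000031304) lies on the minus strand at chrX:101264378-101268255 of GRCm38 and was counted over 2387 exon bases. In the 3 parental libraries its level was 10.9, 9.29 and 11.1 CPM, from 360, 348 and 380 counts. In E6.2 it was 1.02, 2.63 and 1.44 CPM, from 26, 87 and 48 counts. In E7.1 it was 48.3, 48.4 and 39.4 CPM, from 1803, 1895 and 1320 counts. The E6.2 libraries were all below, and the E7.1 libraries all above, the parental libraries. These are the values that chose the gene and they are given as a description, without a test. A lower level in bulk RNA can mean fewer cells with the transcript or less of it per cell, and the libraries cannot tell these apart.

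In the 2 clones whose values did not enter the choice, *Il2rg* was 4.09, 5.30 and 5.0 CPM in E6.1 and 4.01, 4.75 and 5.26 CPM in E7.2. All 6 of these libraries were below the parental libraries and above those of E6.2, and the libraries of E6.1 and E7.2 overlapped each other. Libraries of 22.5% of the tested genes did not overlap between E6.1 and parental cells, and of 24.2% between E7.2 and parental cells. The parental libraries did enter the choice, so comparisons of these 2 clones with them are not independent of it. The mean level therefore rose in the order E6.2 (1.70 ± 0.834 CPM), E7.2 (4.67 ± 0.626), E6.1 (4.80 ± 0.629), parental (10.4 ± 0.976) and E7.1 (45.3 ± 5.17; SD, n = 3 each), and E7.2 and E6.1 were the only neighbours in this order whose libraries overlapped.

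**Figure D1:**
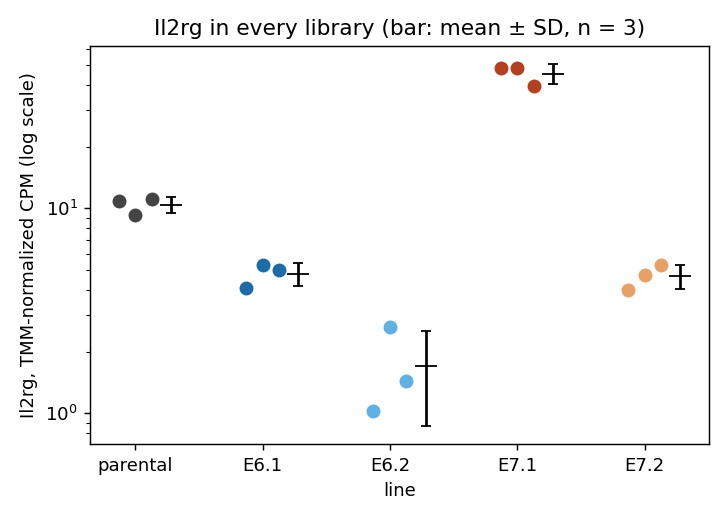
*Il2rg* level in each of the 15 libraries by line, as TMM-normalized CPM on a log axis, with the mean ± SD of the 3 libraries beside the points. E7.1 lies at 39.4 to 48.4 CPM, above all other libraries, and E6.2 at 1.02 to 2.63 CPM, below them, while E6.1 and E7.2 overlap between 4.01 and 5.30 CPM.

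Against parental cells, *Il2rg* had a log2 fold change of -1.12 (SE 0.25) in E6.1 and -1.16 (SE 0.25) in E7.2, that is, levels 2.17-fold and 2.23-fold lower. Neither was called (Benjamini-Hochberg adjusted p of edgeR's quasi-likelihood test = 0.106 and 0.0950). Both comparisons used the parental libraries that entered the choice of the gene, and the spread in this fit came from all 15 libraries. The unadjusted p-values from the same edgeR fit were 0.000578 and 0.000431. Other tests did call them, with adjusted p = 0.000594 and 0.000530 by DESeq2's Wald test and 0.00479 and 0.00307 by edgeR's likelihood ratio test. The edgeR quasi-likelihood test on the 6 libraries compared alone called E6.1 (adjusted p = 0.0262) but not E7.2 (0.117), and a fit that omitted E7.2 replicate 3 together with E6.2 replicate 3 called both (0.0484 and 0.0470). Fits that left out 1 of the 6 libraries gave edgeR adjusted p-values of 0.234 to 0.545 for E6.1 and 0.115 to 0.344 for E7.2. For the 2 clones that chose the gene the log2 fold change was -2.60 in E6.2, 6.07-fold lower, and 2.12 in E7.1, 4.35-fold higher, given as descriptions. E7.1 and E6.2 thus stood 26.4-fold apart. The log2 difference within the exon 6 pair (E6.2 minus E6.1) was -1.48, and within the exon 7 pair (E7.2 minus E7.1) -3.28, again as descriptions. In E6.2 the value rested on few counts, and leaving out replicate 2, the highest, gave -3.07, whereas leaving out replicate 1, the library rich in *Gm42418*, gave -2.36.

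For the 8 other members that were tested, the highest line mean was between 1.19 times (*Ifngr1*) and 1.95 times (*Jak3*) the lowest. The same ratio was 26.7 for *Il2rg*, as a description only, since it is set by the 2 clones that chose the gene. Of those 8 members, 0 were called by edgeR's quasi-likelihood test in any of 4 comparisons with parental cells. Of all tested genes this test called 0.324% in E6.1 and 1.17% in E6.2, while it called 1.22% in E7.1 and 0.295% in E7.2. At an unadjusted p under 0.05 in the same edgeR fit, 1 of the 8 passed in E6.1 (*Il6ra*) beside 6.71% of all tested genes, and 1 in E6.2 (*Ifngr1*) beside 13.1%. In E7.1 there were 0 beside 20%, and in E7.2 there were 2 (*Il6ra, Jak3*) beside 13.3%. DESeq2's Wald test and edgeR's likelihood ratio test also called 0 of the 8 in each clone. The median log2 fold change of the 8 was -0.07 in E6.1 and -0.03 in E6.2, beside 0 and 0.06 over all tested genes, while it was 0.05 in E7.1 and 0.25 in E7.2, beside -0.02 and 0.

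**Figure D2:**
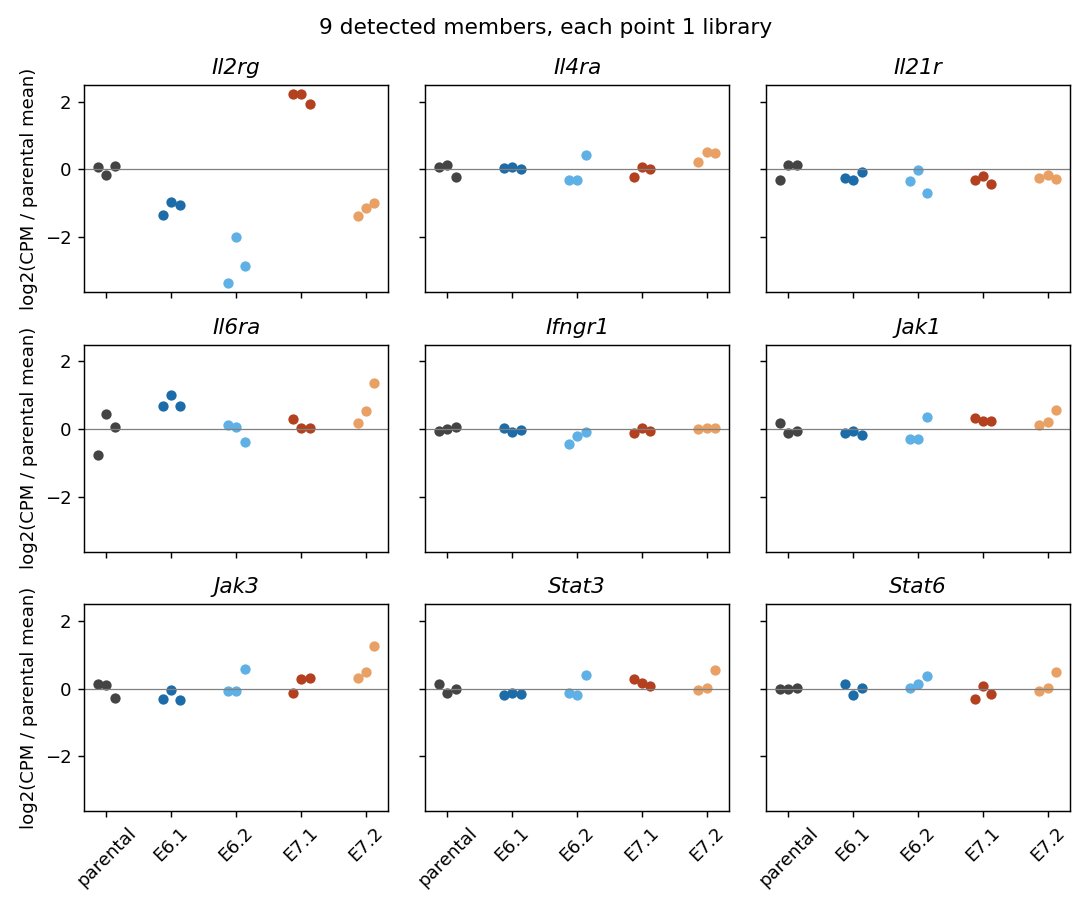
Level of each of the 9 detected members in every library, as the log2 ratio of its CPM to the mean of the 3 parental libraries, with the same vertical axis in each panel. *Il2rg* spans the whole axis, whereas the points of *Il4ra, Il21r, Ifngr1, Jak1, Stat3* and *Stat6* stay within 1 log2 unit of the parental mean and only *Il6ra*, in E6.1 and E7.2, and *Jak3*, in E7.2, have a library beyond it.

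The partner chains come first. *Il4ra* (chr7:125552282-125579472), the interleukin 4 receptor alpha chain, was 21.7, 22.6 and 17.7 CPM in parental cells. It was 21.4, 21.6 and 20.7 CPM in E6.1, 16.7, 16.6 and 28 in E6.2, and 17.8, 21.7 and 21.0 in E7.1. All of these overlapped the parental libraries, and the high E6.2 value was that of replicate 3. In E7.2 it was 24.1, 29.2 and 28.9 CPM, all above the parental libraries, with a log2 fold change of 0.41 (SE 0.19; Benjamini-Hochberg adjusted p of edgeR's quasi-likelihood test = 0.376). Compared with E7.1 the log2 difference was 0.44, with an edgeR quasi-likelihood adjusted p of 0.348.

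*Il21r* (chr7:125603429-125633570), the specific chain of the interleukin 21 receptor and the next of these genes along chromosome 7, was the most abundant member per length in parental cells. It was 148, 201 and 199 CPM in parental cells and 155, 148 and 175 CPM in E6.1. The levels were 145, 182 and 113 CPM in E6.2, 148, 160 and 136 CPM in E7.1, and 152, 163 and 150 CPM in E7.2. The 5 lines overlapped, and the clone means were below the parental mean of 183 CPM, with log2 fold changes of -0.20 in E6.1 and -0.32 in E6.2 (edgeR quasi-likelihood adjusted p = 0.947 and 0.434). In the exon 7 pair they were -0.31 for E7.1 and -0.24 for E7.2, which missed the threshold too (edgeR quasi-likelihood adjusted p = 0.324 and 0.530). Its parental libraries were split, with replicate 1 at 148 CPM and the other 2 at 199 and 201 CPM.

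The 3 receptor chains that do not pair with the gamma chain differed widely in level. *Il10ra* (chr9:45253837-45269149), the ligand-binding chain for interleukin 10, had 1 count in 1 parental library and 0 in the other 14 libraries, so it was not detectable above 0.118 CPM, the largest of the libraries' 3-count limits, which cover counting error only. Its partner chain *Il10rb* was present at 16.8 to 64.9 CPM, and the ligand gene *Il10* at 6.18 to 27.8 CPM, in the same libraries.

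*Ifngr1* (chr10:19591949-19610229), the ligand-binding chain for interferon gamma, varied least of the members over the line means. Its 3 libraries were 53.5, 55.6 and 57.2 CPM in parental cells, 56.3, 51.9 and 53.9 in E6.1, 51.6, 56.7 and 53.2 in E7.1, and 55.4, 56.4 and 56.3 in E7.2. In E6.2 it was 41.2, 47.8 and 52.0 CPM, all below the parental libraries, with a log2 fold change of -0.24 (SE 0.11; edgeR quasi-likelihood adjusted p = 0.363). The lowest of these was replicate 1, the library rich in *Gm42418*, and the part of that library in the value was not tested beyond leaving it out, which gave -0.17.

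*Il6ra* (chr3:89869324-89913162), the interleukin 6 receptor alpha chain, was the least abundant detected member per length in parental cells. It was 1.90, 4.43 and 3.41 CPM in parental cells, 3.50, 3.42 and 2.50 in E6.2, and 3.99, 3.35 and 3.34 in E7.1. These 3 lines overlapped. In E6.1 it was 5.20, 6.54 and 5.18 CPM, above all parental libraries, with a log2 fold change of 0.79 (SE 0.33; edgeR quasi-likelihood adjusted p = 0.647). In E7.2 it was 3.67, 4.67 and 8.31 CPM, with a log2 fold change of 0.77 (SE 0.33; edgeR quasi-likelihood adjusted p = 0.351), and the highest value was that of replicate 3, without which it was 0.39 (0.636). Both log2 fold changes also rested on parental replicate 1, the lowest parental library, without which each was 0.52. E6.2 lay below E6.1 by a log2 difference of -0.85, which also missed the threshold in the edgeR test (adjusted p = 0.298).

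Of the kinases, *Jak1* (chr4:101152367-101265282) was 195, 160 and 167 CPM in parental cells and 161, 167 and 154 CPM in E6.1. It was 141, 140 and 220 CPM in E6.2, where replicate 3 stood above the other 2. In E7.1 it was 217, 205 and 203 CPM, all above the parental libraries, and in E7.2 188, 202 and 255 CPM, with log2 fold changes of 0.26 (SE 0.17) and 0.31 (SE 0.17). Neither passed (edgeR quasi-likelihood adjusted p = 0.418 and 0.446).

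*Jak3* (chr8:71676296-71690575), the kinase bound to the gamma chain, was 8.68, 8.49 and 6.43 CPM in parental cells, and 6.38, 7.65 and 6.28 CPM in E6.1. E6.2 had 7.44, 7.53 and 11.7 CPM and E7.1 7.18, 9.52 and 9.75 CPM. These 4 lines overlapped. In E7.2 it was 9.88, 11.1 and 18.7 CPM, all above the parental libraries, with a log2 fold change of 0.75 (SE 0.26) that missed the threshold (edgeR quasi-likelihood adjusted p = 0.280). Without E7.2 replicate 3, which held the highest value, the log2 fold change was 0.45 (edgeR quasi-likelihood adjusted p = 0.482).

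The transcription factors varied less. *Stat3* (chr11:100885098-100939540) was 67.5, 56.5 and 60.5 CPM in parental cells, and 53.6, 56.2 and 54.9 CPM in E6.1. It was 55.9, 54.1 and 81.9 CPM in E6.2, while E7.1 had 74.3, 68.8 and 65.0 CPM and E7.2 had 59.9, 62.5 and 89.7 CPM. The E6.1 libraries were all just below the parental libraries and those of the other clones overlapped them. *Stat6* (chr10:127642986-127660957) was 128, 129 and 130 CPM in parental cells, the closest agreement of libraries of any member, and 142, 114 and 130 CPM in E6.1. It was 131, 141 and 167 CPM in E6.2, 104, 136 and 115 CPM in E7.1, and 122, 131 and 182 CPM in E7.2. The highest values of both genes in E6.2 and in E7.2 were those of replicate 3. The log2 fold change of *Stat6* in E6.2, whose libraries all lay above the parental ones, was 0.18 (edgeR quasi-likelihood adjusted p = 0.649).

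Levels of different genes were set side by side only per length, as CPM per kb of exon. In parental cells *Il21r* was at 70.2 ± 11.5 CPM per kb (SD, n = 3), followed by *Stat6* at 29.3 ± 0.215, *Jak1* at 24.0 ± 2.56, *Ifngr1* at 19.5 ± 0.656, *Stat3* at 6.46 ± 0.584, *Il2rg* at 4.36 ± 0.409, *Il4ra* at 4.06 ± 0.510, *Jak3* at 1.47 ± 0.233 and *Il6ra* at 0.972 ± 0.380. *Il9r*, the interleukin 9 receptor chain, was above all members at 124 ± 47.0 CPM per kb. The gamma chain transcript was therefore low beside 2 of its partner chains, *Il21r* and *Il9r*. It was near *Il4ra* and above *Il15ra*, which was at 1.56 ± 0.281 CPM per kb. The ratio of *Il21r* to *Il2rg* per length averaged 16.3 in parental cells. It was 30.7 in E6.1 and 88.4 in E6.2, while E7.1 had 3.00 and E7.2 had 30.8. For *Il9r* the same ratio averaged 28.9 in parental cells, and 70.0, 260.0, 3.34 and 50.6 in the clones in the same order. These ratios are descriptions only, since *Il2rg*, by which they divide, was chosen for its values in parental cells, E6.2 and E7.1. Even in E7.1 *Il21r* and *Il9r* were above the gamma chain in each library, with ratios of at least 2.81 and 2.69. The ratios of *Il4ra* and *Il15ra* to *Il2rg* averaged 0.941 and 0.356 in parental cells. They were 0.211 and 0.0693 in E7.1, below the gamma chain, and 6.56 and 1.24 in E6.2.

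**Figure D3:**
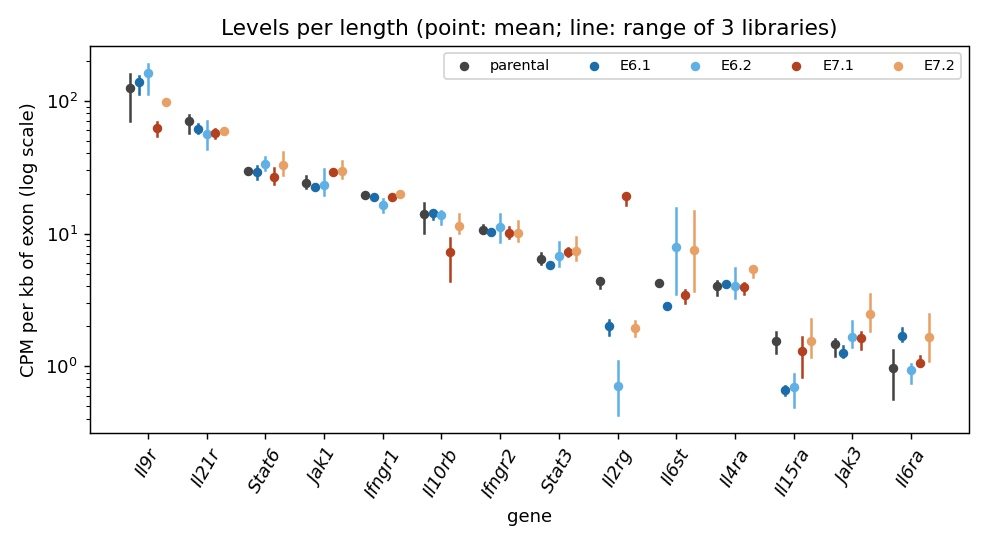
CPM per kb of exon, on a log axis, of the 9 detected members and 5 further receptor chains in the 5 lines, where points are means and lines the range of the 3 libraries. *Il2rg* covers 0.712 to 19.0 CPM per kb over the line means, while the line means of each other member lie within a 1.95-fold range, and some neighbours change order between lines.

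The other genes of the pathway came from lists of 10 ligands, 10 partner receptors, 7 other JAK or STAT genes, 14 inhibitors and 9 STAT targets, 50 in all, of which 36 were tested. Of the 14 that were not tested, the ligands *Il2, Il9, Il13, Il15, Il21, Il6* and *Ifng* and the receptor chains *Il2ra, Il2rb, Il7r* and *Il13ra1* had at most 8 counts in any library. *Stat4, Socs3* and *Cish*, of which the last 2 are feedback inhibitors, had at most 6. Of the other chains of receptors that contain the gamma chain, *Il4ra, Il9r, Il15ra* and *Il21r* were thus tested, and *Il2ra, Il2rb* and *Il7r* were not.

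In the comparisons with parental cells edgeR's quasi-likelihood test called 0 of the 36 in each clone. At an unadjusted p under 0.05 there were 5 in E6.1 and 7 in E6.2, while E7.1 had 11 and E7.2 had 5, beside 6.71%, 13.1%, 20% and 13.3% of all tested genes in the same order. As shares of the list these were 13.9%, 19.4%, 30.6% and 13.9%. DESeq2's Wald test called 1, 2, 4 and 2 of the 36 in that order, beside 1.11%, 2.86%, 8.32% and 1.83% of all tested genes. The edgeR likelihood ratio test called 0, 1, 4 and 1, beside 0.899%, 2.24%, 5.38% and 1.13%. Nothing particular to the pathway genes is read from these counts. The 4 in E7.1 were the same genes by both tests, *Ptpn6* (higher) and *Il9r, Il10rb* and *Socs5* (lower). These counts depended on single libraries, since leaving out parental replicate 1 gave 5 called genes for E7.1, in a fit that called 6.81% of all genes there, and 1 for E7.2, and leaving out E6.2 replicate 2 gave 1 in E6.2. The median log2 fold change of the 36 was -0.08, 0.06, -0.23 and -0.01 in the same order.

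E7.1 and E6.2, the 2 clones at the ends of the *Il2rg* range, were also compared with each other. This is a contrast in which 16.9% of all tested genes were called, 2346 of 13904. Of the 8 other members 0 were called, also at an unadjusted p under 0.05, which 34.1% of all tested genes reached in edgeR's quasi-likelihood test, and DESeq2's Wald test and edgeR's likelihood ratio test called 0 as well, beside 24.1% and 20.9% of all tested genes. The nearest to the threshold were *Stat6*, lower by 0.31 on the log2 scale in E7.1 (edgeR quasi-likelihood adjusted p = 0.198), and *Ifngr1* and *Jak1*, at log2 differences of 0.20 and 0.32 (0.208 and 0.211). This count rested on E6.2 replicate 3. Without it *Jak1* was called, at a log2 difference of 0.57 (edgeR quasi-likelihood adjusted p = 0.0128). Without that library and E7.2 replicate 3 the calls were *Jak1* (0.60), *Stat3* (0.36) and *Ifngr1* (0.30), each higher in E7.1 (edgeR quasi-likelihood adjusted p = 0.00259, 0.0171 and 0.0383), in a fit that called 34.9% of all genes.

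Of the 36 other pathway genes, 12 were called between E7.1 and E6.2, 3 higher and 9 lower in E7.1, and 16 had an unadjusted p under 0.05. Over all tested genes 8.22% were called higher and 8.65% lower in E7.1. The count was 9 without E6.2 replicate 1, 12 without E6.2 replicate 3, and fell to 4 without E7.1 replicate 1 and to 5 without E7.1 replicate 3, in fits that called 9.58%, 25.7%, 3.76% and 7.01% of all genes. The summed B-cell markers were at 818 to 1020 CPM in E6.2 and at 1130 to 1430 CPM in E7.1. The markers did not all differ one way. *Ms4a1*, the most abundant, had means of 350 CPM in E6.2 and 598 CPM in E7.1, and *Cd79a, Cd79b* and *Pax5* were also lower in E6.2. *Cd22* (95.7 against 68.1 CPM) and *Cd37* (154 against 129 CPM) were higher in E6.2. The part of these differences in the results that follow was not tested.

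By role, 1 of 3 tested ligands was called, *Il7*, a gamma chain cytokine, which was 3.86, 2.55 and 2.71 CPM in E7.1 and 0.827, 1.78 and 0.752 CPM in E6.2, at a log2 difference of 1.43 (SE 0.36; edgeR quasi-likelihood adjusted p = 0.0189). Of 6 tested partner receptors 3 were called, each lower in E7.1. *Il9r* was 346, 780 and 708 CPM in parental cells, and 763, 550 and 725 CPM in E6.1. It was 896, 940 and 551 CPM in E6.2, while E7.1 had 270, 313 and 343 CPM and E7.2 had 470, 480 and 508 CPM. The E7.1 libraries were thus below all others, and the difference from E6.2 was -1.37 on the log2 scale (SE 0.28; edgeR quasi-likelihood adjusted p = 0.00843). Against parental cells *Il9r* had a log2 fold change of -0.99 in E7.1 and 0.38 in E6.2, neither called (edgeR quasi-likelihood adjusted p = 0.0758 and 0.561).

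The other 2 receptor chains were *Il10rb* and *Crlf2*, the receptor chain for thymic stromal lymphopoietin. *Il10rb* was 16.8, 35.0 and 31.8 CPM in E7.1 and 45.2, 56.6 and 55.6 CPM in E6.2, a log2 difference of -0.91 (SE 0.25; edgeR quasi-likelihood adjusted p = 0.0268). *Crlf2* was 5.33, 7.89 and 7.37 CPM in E7.1 and 8.62, 16.2 and 20.5 CPM in E6.2, a log2 difference of -1.14 (SE 0.34; edgeR quasi-likelihood adjusted p = 0.0379). For both, no E7.1 library reached the lowest E6.2 library. The share of all tested genes without overlap between these 2 clones is not given here, so nothing is read from this. In the same contrast 34.1% of all tested genes had an unadjusted p under 0.05 in edgeR's quasi-likelihood test.

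Of 6 tested JAK and STAT genes outside the members 0 were called, and 0 had an unadjusted p under 0.05, by edgeR's quasi-likelihood test, and the DESeq2 Wald and edgeR likelihood ratio tests also called 0. Of 12 tested inhibitors 3 were called. *Ptpn6*, the phosphatase SHP-1, was 198, 161 and 137 CPM in E7.1 and 55.9, 56.2 and 61.0 CPM in E6.2, a log2 difference of 1.52 (SE 0.27; edgeR quasi-likelihood adjusted p = 0.00478). It was 118, 52.4 and 58.2 CPM in parental cells, where replicate 1 stood above the other 2 libraries, and 138, 161 and 151 CPM in E7.2. *Ptpn11*, the phosphatase SHP-2, was 0.44 higher on the log2 scale in E7.1 (SE 0.12; edgeR quasi-likelihood adjusted p = 0.0276). *Socs5*, of the suppressor of cytokine signalling family, was 18.2, 26.6 and 27.3 CPM in E7.1 and 48.3, 61.2 and 50.5 CPM in E6.2, a log2 difference of -1.15 (SE 0.23; edgeR quasi-likelihood adjusted p = 0.00858). The 3 inhibitors therefore did not move one way.

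Of the 9 STAT targets 5 were called and all 5 were lower in E7.1. The count depended on single libraries, at 1 (*Bcl2l1*) without E7.1 replicate 1 or without its replicate 3, 2 without E7.1 replicate 2 (*Bcl2l1, Irf1*) or E6.2 replicate 3 (*Bcl2l1, Batf*), and 3 without E6.2 replicate 1 or 2 (*Bcl2l1, Batf, Pim1*). *Bcl2l1*, which encodes the survival protein Bcl-xL, was 284, 275 and 286 CPM in E7.1 and 718, 794 and 534 CPM in E6.2, a log2 difference of -1.28 (SE 0.25; edgeR quasi-likelihood adjusted p = 0.00761). The survival kinase *Pim2* was 29.4, 24.2 and 25.1 CPM in E7.1 and 58.7, 84.0 and 203 CPM in E6.2, a log2 difference of -2.14 (SE 0.69; edgeR quasi-likelihood adjusted p = 0.0491). Its highest E6.2 library was replicate 3, without which the log2 difference was -1.44 and not called (edgeR quasi-likelihood adjusted p = 0.134). The related kinase *Pim1* was lower by 1.16 on the log2 scale (SE 0.34; adjusted p = 0.0352 in the edgeR test), and by 0.78 without that library, again not called (0.0927). *Irf1*, an interferon-regulated transcription factor, and *Batf*, a transcription factor of the AP-1 family, were lower by 0.89 (SE 0.27) and 0.94 (SE 0.25), with edgeR adjusted p = 0.0383 and 0.0234. The median log2 difference of the 9 targets was -0.91, beside -0.07 over all tested genes. These targets also answer to other pathways and the list does not separate those sources.

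*Il9r, Socs5, Ptpn6* and *Bcl2l1* were called between E7.1 and E6.2 under all 14 alternative settings, and the other 8 genes under 7 to 11 of them. Without E7.1 replicate 1 they were the only 4 called, and without E7.1 replicate 3 *Il7* was called beside them.

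**Figure D4:**
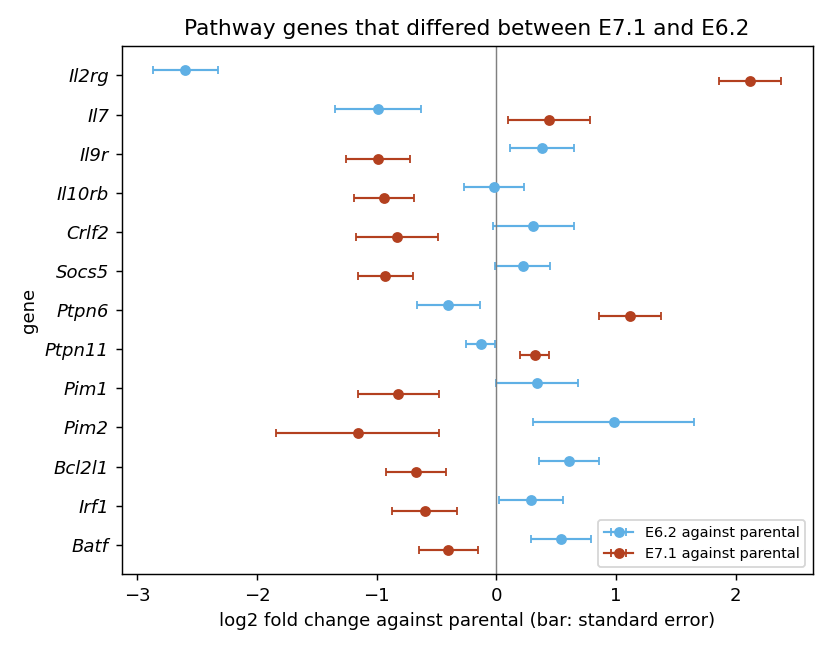
Log2 fold change against parental cells, with its standard error, in E6.2 and E7.1, for *Il2rg* and for the 12 other pathway genes called between those 2 clones. Both sets of points use the same parental libraries. *Il2rg* was chosen for its opposite signs, from -2.60 to 2.12, so its standard errors are not to be read as a test. Of the 12 other genes, 9, from *Il9r* to *Batf*, have their E7.1 point to the left of the E6.2 point.

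Within the clone pairs that share a targeted exon, 0 of the 8 other members and 0 of the 36 other pathway genes were called by edgeR's quasi-likelihood test, which called 1.24% of all tested genes between E6.2 and E6.1 and 0.590% between E7.2 and E7.1. At an unadjusted p under 0.05 there were 1 and 2 members and 5 and 6 other genes, beside 12.9% and 13.3% of all tested genes. DESeq2's Wald test called 0 members in either pair and 1 other gene in each, and edgeR's likelihood ratio test 0 members in either pair, and 1 and 0 other genes, where over all tested genes the Wald test called 3.22% and 2.06% and the likelihood ratio test 2.85% and 1.72%. The 8 members had a median log2 difference of 0 between E6.2 and E6.1 and of 0.18 between E7.2 and E7.1, where all 8 were positive. *Jak3* was the highest of those with an unadjusted p under 0.05, at 0.58 (edgeR quasi-likelihood adjusted p = 0.356), and its libraries in E7.2 lay above those in E7.1. Without E7.2 replicate 3 the *Jak3* difference fell to 0.26 (edgeR quasi-likelihood adjusted p = 0.942).

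The genes whose log2 CPM followed that of *Il2rg* most closely over the 15 libraries, of 11422 with a mean of at least 1 CPM, were *Actr3b* (Pearson r = 0.939), *Dzip1* (0.929), *Stom* (0.918), *Ehd2* (0.913) and *Anapc4* (0.902). The 15 points share 5 lines, so the values mostly reflect the line means. Within lines, after subtraction of each line's mean, r was 0.507, -0.576, 0.171, -0.11 and 0.616 for the same genes. The members had r between -0.499 (*Stat6*) and 0.438 (*Ifngr1*) with *Il2rg* over the 15 libraries, and *Jak3* had r = -0.0541.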

How the data were processed

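RNA sequencing data of 15 libraries, 3 from each of the parental line and the 4 clones, were used. The values deposited by the authors are raw counts, that is, read pairs per gene, without normalization. According to the submitters' processing notes and the table headers, reads were aligned with HISAT to mm10, handled with SAMtools and counted with featureCounts 1.5.0. The annotation was that of GRCm38 and included 92 ERCC spike-ins, all at 0. Counting disregarded strand and left out pairs that mapped to several places or overlapped several genes, so genes with close paralogs or overlapping neighbours can be undercounted. Symbols were matched by Ensembl identifier for 40254 of 41388 genes.

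Counts were analysed with edgeR 4.0.16 (R 4.3.3). filterByExpr kept 13904 genes, whose counts were normalized by TMM and fitted in 1 quasi-likelihood model of all 15 libraries with line as the factor. Each clone was compared with parental cells, and E7.1 with E6.2, E6.2 with E6.1 and E7.2 with E7.1. P-values were adjusted by Benjamini-Hochberg over all genes within a comparison, and calls were made where this value was under 0.05. The standard error is that implied by the F statistic. For *Il2rg* no p-value, call or standard error is given in the text where E6.2 or E7.1 took part, because those values chose the gene. CPM used effective library sizes, and CPM per kb the featureCounts exon length. Likeness to *Il2rg* was Pearson's r of log2(CPM + 0.5).

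The genes named are all members, every gene of the pathway lists called in a comparison with parental cells or in E7.1 against E6.2, and the 5 genes most like *Il2rg*. Exceptions, named after their values were seen, are genes behind counts of 5 or fewer under alternative settings and the neighbours of *Il2rg*. The members, the gene lists and the comparisons between clones were chosen with earlier results of these data known. Promoters were taken from RefSeq. The fit was tested on simulated data.

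Alternatives were DESeq2 size factors within edgeR, no low-count filter, a fit of the 6 libraries compared, DESeq2 1.42.0's Wald test, the likelihood ratio test of edgeR, an added log2 fold change of at least 1, a replicate block, removal of each library in turn, and removal of replicate 3 of both E6.2 and E7.2.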

Additional observations from a re-analysis of the deposited data

Results flagged for a closer look

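The log2 fold changes against parental cells differed between E7.1 and E6.2 for 12 of the 36 tested pathway genes outside the members, by edgeR's quasi-likelihood test of the difference itself (E7.1 minus E6.2, adjusted p from 0.00478 to 0.0491 after Benjamini-Hochberg adjustment). In this contrast 16.9% of all tested genes were called. Only *Il9r, Socs5, Ptpn6* and *Bcl2l1* kept their call under all 14 alternative settings. The difference was positive for *Il7* (1.43), *Ptpn6* (1.52) and *Ptpn11* (0.44). It was negative for the receptor chains *Il9r* (-1.37), *Il10rb* (-0.91) and *Crlf2* (-1.14), for the inhibitor *Socs5* (-1.15), and for the STAT targets *Pim1* (-1.16), *Pim2* (-2.14), *Bcl2l1* (-1.28), *Irf1* (-0.89) and *Batf* (-0.94). For *Il2rg* the log2 difference was 4.72, with all libraries of E7.1 above and all libraries of E6.2 below the parental libraries, and this difference was not tested because it chose the gene. E7.1 and E6.2 are compared here with the same parental libraries.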

How the results depend on the processing

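None of the log2 fold changes of named genes changed sign under the alternatives run. Of the counts of called genes, 171 stayed within 1.5 times the reported count and 25 did not. Of the log2 fold changes of named genes, 633 kept their direction and their side of the threshold, 21 came past it, 43 lost it and 3, given without a test, moved by more than their standard error. The 8 tested members other than *Il2rg* gave 0 calls throughout, except between E7.1 and E6.2, where leaving out E6.2 replicate 3 gave 1 and leaving out replicate 3 of E6.2 and E7.2 gave 3.

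The other pathway genes called against parental cells were 0 in each clone as reported. In E6.1 the DESeq2 Wald test gave 1 (*Il15ra*), the fit of 6 libraries 2 (*Il15ra, Il6st*) and removal of both replicates 3 gave 1 (*Il6st*). These called 1.11%, 0.849% and 0.924% of all tested genes in that order. In E6.2 no filter and the edgeR likelihood ratio test gave 1 each (*Il10*), the Wald test 2 (*Il10, Il15ra*), and single removals 0 to 1 (*Il7*, without E6.2 replicate 2). The shares of all tested genes were 0.839% with no filter, 2.24%, 2.86%, and 1.49% without E6.2 replicate 2. In E7.1 no filter gave 3 (*Ptpn6, Il10rb, Socs5*), the Wald and likelihood ratio tests 4 each, single removals 0 to 5 (without parental replicate 1, those 4 and *Bcl2l1*), and removal of both replicates 3 gave 9, where that fit called 15.2% of all genes against 1.22% as reported. The other shares in E7.1 were 1.38% with no filter, 8.32% and 5.38% by the Wald and likelihood ratio tests, and 6.81% without parental replicate 1. In E7.2 the Wald test gave 2 (*Ptpn6, Socs5*), the likelihood ratio test 1 (*Ptpn6*), single removals 0 to 1 (*Ptpn6*, without parental replicate 1) and removal of both replicates 3 gave 1 (*Socs5*). The shares of all tested genes were 1.83%, 1.13%, 0.204% without parental replicate 1, and 1.53%. Between E7.1 and E6.2 the 12 calls became 6 in the fit of 6 libraries and 4 to 12 under single removals (4 without E7.1 replicate 1, 5 without E7.1 replicate 3). The fit of 6 libraries called 6.21% of all tested genes there, against 16.9% as reported, and the single removals 3.76% to 25.7%. Between E6.2 and E6.1 the Wald and likelihood ratio tests gave 1 each (*Bcl3*), beside 3.22% and 2.85% of all tested genes. Between E7.2 and E7.1 the Wald test gave 1 (*Il7*), beside 2.06%. The causes were not tested, other than that smaller fits hold fewer libraries.

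With a replicate block, the members gave 0 calls in every comparison and the other pathway genes 2 in E7.1 against parental cells (*Il10rb, Socs5*), 12 between E7.1 and E6.2 and 0 elsewhere. That fit called 1.17% of all tested genes in E7.1 against parental cells and 15.1% between E7.1 and E6.2. *Il2rg* had -1.14 and -1.17 on the log2 scale in E6.1 and E7.2 (edgeR adjusted p = 0.116 and 0.0998). Same-numbered libraries of clone and parental cells had deviations correlated at a mean r of -0.0278 for E6.1 and 0.108 for E6.2, while E7.1 had -0.00356 and E7.2 had 0.125, and 7 of 15 libraries were most like a library of their own number in another line, so the numbers were taken as names only.

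Depth limits *Il2rg* in E6.2, at 26 to 87 counts, and *Il6ra*, at 63 to 259 counts, more than the other tested members.

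The lower *Foxp1* level lost its call in E7.1 without parental replicate 2 (log2 fold change -1.13, edgeR quasi-likelihood adjusted p = 0.0533) and in E7.2 in the fit of 6 libraries (-1.67, 0.0538).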

Other observations

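The neighbours of *Il2rg* were examined after its values were seen. The 5 tested genes on each side, *Kif4, Dlg3, Slc7a3, Snx12, Foxo4, Med12, Gm21986, Zmym3, Nono* and *Itgb1bp2*, span chrX:100625737-101453541 of GRCm38. By edgeR's quasi-likelihood test 0 of the 10 were called in any clone against parental cells or between E7.1 and E6.2, and the lowest Benjamini-Hochberg adjusted p of each comparison was 0.943 for E6.1, 0.638 for E6.2, 0.150 for E7.1 and 0.428 for E7.2, and 0.0568 for E7.1 against E6.2. Their log2 fold changes ranged from -0.47 to 0.39 in E6.1 and from -0.19 to 1.02 in E6.2, while those of E7.1 ran from -0.80 to 0.65 and those of E7.2 from -1.01 to 0.25, and their log2 differences between E7.1 and E6.2 from -1.51 to 0.54. *Foxo4* and *Med12*, the nearest on either side, had log2 differences between those 2 clones of -0.43 and 0.52, beside 4.72 for *Il2rg*. Over 499 tested genes of the X chromosome, 16.8% were called between E7.1 and E6.2.

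*Il15ra*, the alpha chain of the interleukin 15 receptor, was 6.50, 5.23 and 7.54 CPM in parental cells, and lower in each library of E6.1 (2.86, 2.91 and 2.50 CPM) and of E6.2 (3.58, 2.03 and 3.10 CPM). Its log2 fold changes were -1.22 and -1.15 and missed the threshold in edgeR's quasi-likelihood test (adjusted p = 0.212 and 0.139). *Il10* was 27.8, 11.6 and 12.6 CPM in parental cells and 6.18, 7.50 and 6.47 CPM in E6.2, a log2 fold change of -1.37 (edgeR quasi-likelihood adjusted p = 0.0903). Parental replicate 1 carried much of this value, and without it the log2 fold change was -0.84 (edgeR quasi-likelihood adjusted p = 0.430).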
